A study of Mus musculus with 6 samples.

Results

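Abcb1a and Abcb1b, the genes of the mouse efflux pump P-glycoprotein, were followed across every cell class of 3 tissues: the hypothalamic paraventricular nucleus (PVN), pituitary and adrenal gland. They are 2 of the genes in the deposited count tables (27998 in all) and were found by their symbols, each of which names 1 row (ENSMUSG00000040584 for Abcb1a, ENSMUSG00000028970 for Abcb1b). The 6 droplet single-cell libraries came from C57BL/6 mice aged 10 weeks, either after 21 days of chronic social defeat stress, in which a mouse is confronted repeatedly with an aggressive mouse, or as controls. Each tissue and condition gave 1 library from the pooled tissue of 5 mice, so stress and control could not be tested against each other, and every interval on a stress to control difference covers counting error only. The animals were perfused before dissection, PVN and pituitary were dissociated in papain, adrenals in collagenase, and the stress and control suspensions of a tissue ran on the same chip. The title of the series names adrenal ABCB1, and the comparison of interest there is its level after stress.

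P-glycoprotein is an ATP-driven pump in the plasma membrane that moves many lipophilic drugs and some steroids out of the cell. Humans carry a single ABCB1 gene, while mice carry the pair Abcb1a and Abcb1b side by side. In the rodent brain the protein of Abcb1a is a known component of the blood-brain barrier in capillary endothelium, and Abcb1b is known for its expression in steroid-producing tissue.

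Both genes lie on the plus strand of chromosome 5 in GRCm38, the assembly that mm10 stands for. In the GENCODE vM21 annotation Abcb1a spans chr5:8660077-8748575 and Abcb1b chr5:8798147-8866315, with 49.6 kb between them and their relative Abcb4, a phospholipid exporter, beyond Abcb1b at chr5:8893717-8959231. The RefSeq start of Abcb1a lies 93.0 kb upstream of the GENCODE start, whereas both annotations place the start of Abcb1b at the same base. The antisense gene Gm5106 overlaps the start of Abcb1b and held 13 UMIs over all barcodes, against 15704 for Abcb1b and 2112 for Abcb1a. A UMI is a molecular tag that counts 1 captured mRNA molecule at its 3′ end, so counts were not divided by transcript length. The transcripts Abcb1a-201 (4997 bases) and Abcb1b-201 (4306 bases) are close relatives: 15.5% of the 50-base words of Abcb1a-201 also occur in Abcb1b-201. None of the words in its last 500 bases, where 3′ reads fall, does.

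The 250 bases before each RefSeq start are printed because the genes differ in where they are expressed. They run 5′ to 3′ on the plus strand of GRCm38.p6, from chr5:8566841-8567090 for Abcb1a and chr5:8797897-8798146 for Abcb1b, with capitals where a searched motif matches.
Abcb1a: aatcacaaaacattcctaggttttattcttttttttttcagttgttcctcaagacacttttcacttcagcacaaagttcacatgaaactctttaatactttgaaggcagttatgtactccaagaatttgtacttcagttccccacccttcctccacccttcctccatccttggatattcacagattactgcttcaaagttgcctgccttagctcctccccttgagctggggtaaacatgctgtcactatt
Abcb1b: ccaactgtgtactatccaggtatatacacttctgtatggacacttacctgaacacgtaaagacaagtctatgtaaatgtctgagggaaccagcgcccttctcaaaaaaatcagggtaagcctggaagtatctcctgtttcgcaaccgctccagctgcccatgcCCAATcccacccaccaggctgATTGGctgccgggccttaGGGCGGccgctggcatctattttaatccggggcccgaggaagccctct
The motifs CCAAT (the NF-Y box), GGGCGG (the GC box of Sp1), AGAACA (part of a glucocorticoid response element), TGANTCA (the AP-1 site), CACGTG (an E-box) and TATAAA (the TATA box) were searched on both strands from 250 bases before to 50 bases after the start. Abcb1b held CCAAT on the plus strand 87 bases before the start, the same motif on the minus strand (ATTGG as printed) 66 bases before it, and GGGCGG 48 bases before it. Abcb1a held none of the motifs before its RefSeq start and AGAACA once after it. This window lies within the gene Rundc3b (chr5:8490334-8622952, minus strand). The sequence at the GENCODE start of Abcb1a, 93.0 kb downstream, was not searched. Over all 32851 RefSeq promoters of the same length, 37.4% held CCAAT, 35.7% GGGCGG, 19% AGAACA, 7.81% TGANTCA, 7.15% CACGTG and 13.6% TATAAA. The windows of both genes shared no 10-base word, and 40.4% of the Abcb1a bases and 52.8% of the Abcb1b bases were G or C, beside a median of 52.4% over all promoters.

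The libraries held 3612 (stress) and 3653 (control) barcodes from PVN tissue, 5103 and 5202 from pituitary and 3183 and 2330 from adrenal glands, with median depths of 5593.5 to 10288 UMIs per barcode. Between 10 and 39 barcode sequences per tissue occurred in both conditions. A barcode over 25% mitochondrial UMIs was left out, which took 11.9% of adrenal stress barcodes and 5.58% of adrenal control barcodes but at most 1.27% in any other library. This difference bears on Abcb1b and is given with it. Cell classes were named from fixed marker genes and are written "X-like". ABC transporter genes, including both pumps, took no part in the clustering. A level is the summed UMIs of a class scaled to all UMIs of that class, in the usual depth-normalised unit CPM.

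**Figure D1:**
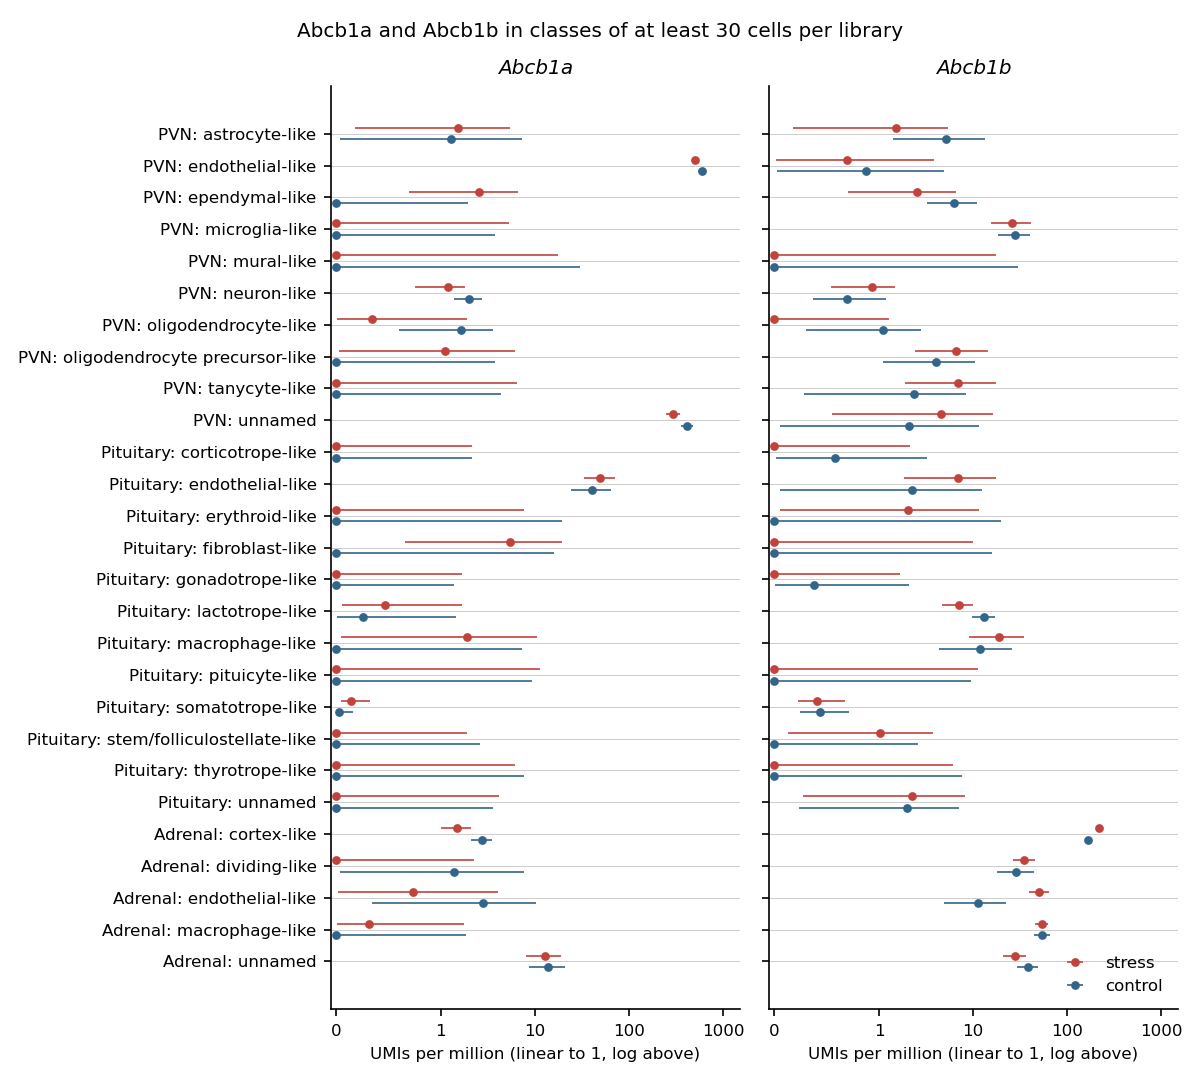
Levels of Abcb1a (left panel) and Abcb1b (right panel) in CPM (axis linear to 1, log above) in each class with at least 30 cells per library, with 95% exact Poisson intervals. The stress library is drawn above the control library. Abcb1a stands highest in PVN endothelial-like cells (497 and 591 CPM) and Abcb1b in adrenal cortex-like cells (216 and 166 CPM).

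Abcb1a was highest in the vessels of the brain tissue. PVN endothelial-like cells held 714 UMIs in 239 stress cells and 671 UMIs in 178 control cells, or 497 CPM (95% Poisson interval 462 to 535) and 591 CPM (547 to 637). They made up 6.91% of the kept PVN cells after stress and 5.07% in the control, and held 81.7% and 73.5% of all PVN Abcb1a UMIs. Most of the remainder lay in cluster 18, a small cluster left unnamed because it carried markers of both mural and endothelial cells, with 353 CPM in 41 stress cells and 419 CPM in 48 control cells. PVN mural-like cells without that mixture held no Abcb1a UMI in 54 stress and 33 control cells, which allows up to 14.4 and 24.5 CPM (3 counts per library).

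Outside vessels Abcb1a was low in the PVN. Neuron-like cells held 22 UMIs in 1579 stress cells and 37 in 1590 control cells, 1.20 and 1.98 CPM. Neuron-like cluster 12, led by Oxt, Sst, Avp and Crh, held 8 UMIs in 51 stress cells and 6 UMIs in 102 control cells, 9.32 CPM (4.03 to 18.4) and 3.22 CPM (1.18 to 7.01), and was singled out after its values were seen. Microglia-like and tanycyte-like cells held none in either library. After thinning every cell to 1000 UMIs, 35.6% of PVN endothelial-like cells had an Abcb1a UMI in the stress library and 43.3% in the control library, against 0.127% and 0.189% of neuron-like cells. Unthinned, the shares were 84.9% and 92.1% in endothelial-like cells at median depths of 4766 and 5454.5 UMIs, and 1.14% and 1.57% in neuron-like cells at median depths of 10741 and 10773.5 UMIs.

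The same cells, where Abcb1a was highest, carried 1 UMI of its neighbour Abcb1b in each PVN library. This lies below the floor of 3 counts per library, so no level of Abcb1b can be compared between stress and control there.

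The level of Abcb1a differed between the endothelia of the tissues. Pituitary endothelial-like cells held 29 UMIs in 124 stress cells and 18 UMIs in 104 control cells, 49.6 CPM (33.2 to 71.3) and 40.4 CPM (23.9 to 63.8). Adrenal endothelial-like cells held 1 UMI in 274 stress cells and 2 UMIs in 131 control cells, 0.73 and 2.83 CPM. The intervals of the PVN, pituitary and adrenal endothelium did not overlap within either condition.

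Known barrier genes were also highest in PVN endothelium. Slco1a4, an organic anion transporter of brain capillaries, stood at 1937 and 2177 CPM in stress and control PVN endothelium, 17.1 and 9.0 CPM in the pituitary, and 0 CPM in both adrenal libraries. Mfsd2a, a lipid transporter of the blood-brain barrier, had 343 and 405 CPM in PVN endothelium and at most 0.73 CPM elsewhere. Plvap, a diaphragm protein of fenestrated endothelium, went the other way, with 1.4 and 1.8 CPM in PVN endothelium, 6562 and 6816 CPM in pituitary endothelium and 3132 and 3163 CPM in adrenal endothelium. Abcg2, another drug exporter of brain capillaries, differed little between PVN and pituitary: it stood at 888 and 984 CPM in PVN endothelium, 887 and 922 CPM in pituitary endothelium, and 334 and 368 CPM in the adrenal endothelium. The general endothelial markers Pecam1, Cdh5, Tie1 and Tek were present in the class in all 6 libraries, each at 214 CPM or more.

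Over the 6 libraries, Abcb1a was higher in endothelial-like cells than in all other cells of the library in 4. The difference in log2(CPM + 1) was 6.18 and 5.97 for stress and control PVN, 5.38 and 5.31 for stress and control pituitary, and -0.97 and -0.19 for stress and control adrenal. Its mean was 3.61 with a spread of 3.27 (SD, n = 6), and a two-sided exact sign-flip permutation test gave p = 0.125 (0.25 after Benjamini-Hochberg adjustment over both genes). The smallest p this test can give is 0.03125. For Abcb1a the libraries of a tissue gave similar differences, so the spread lies mainly between the 3 tissues. The test took all 6 libraries as independent, which libraries of the same tissue need not be. For Abcb1b the difference was positive in 2 of 6 libraries, with a mean of -0.82 ± 1.84 (SD, n = 6) and an exact permutation p of 0.375 (0.375 adjusted).

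In the adrenal, Abcb1a UMIs were few. Cortex-like cells held 33 UMIs after stress and 62 in the control, 46.5% and 66.7% of those in kept adrenal cells, at 1.47 and 2.75 CPM. A small cluster with mural and fibroblast markers (cluster 17) held 22 UMIs in 30 stress cells and 16 UMIs in 19 control cells, 88.6 and 105 CPM. Without the cell that held the most, those levels were 57.6 and 67.8 CPM. Chromaffin-like cells held 12 and 6 UMIs, 34.1 and 25.3 CPM.

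**Figure D2:**
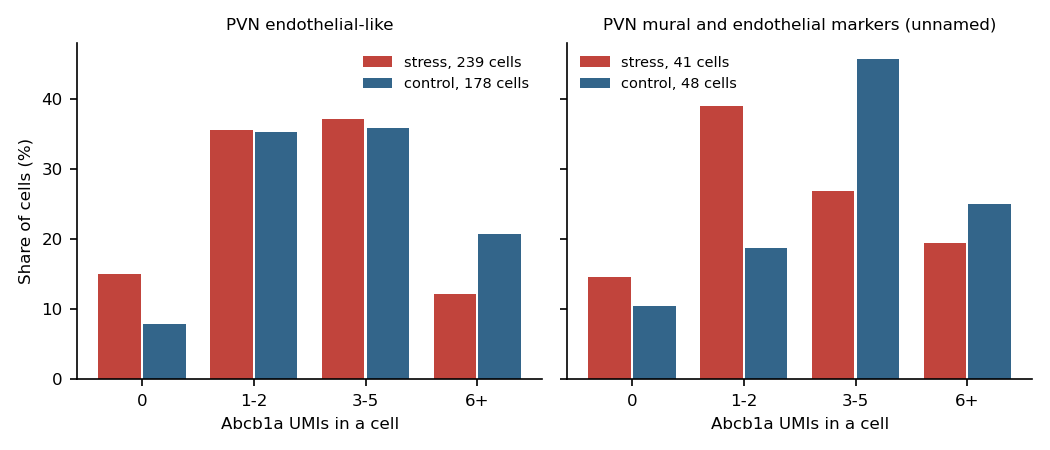
Share of PVN endothelial-like cells (left panel) and of cells of cluster 18, with mural and endothelial markers (right panel), by the number of Abcb1a UMIs in a cell (horizontal axis). Stress bars stand left of control bars, and the median endothelial-like cell held 2 UMIs after stress and 3 in the control.

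After stress, PVN endothelial Abcb1a was slightly lower. The log2 ratio of stress over control was -0.25 (95% counting interval -0.40 to -0.09), which does not reach the 1.5-fold size used here as a call. In this class 8.31% of 8916 genes were at least 1.5-fold lower and 4.30% at least 1.5-fold higher, which are the shares against which listed genes are read, and 26.6% of genes had a ratio as low as that of Abcb1a. The median over these genes was -0.06. An endothelial-like cell held between 0 and 25 Abcb1a UMIs after stress and between 0 and 21 in the control, and the cells of both libraries overlapped over nearly this whole range. Relative to the ratio in all other PVN cells the sign turned, to 0.27. Those cells held 160 Abcb1a UMIs after stress and 242 in the control, of which 130 and 198 lay in cluster 18. The reference is thus mostly a cluster that itself carries endothelial markers. The ratio in the unnamed PVN cells, which include cluster 18, was -0.48 (-0.81 to -0.15). In pituitary endothelium the ratio was 0.28, with an interval from -0.60 to 1.23, and 7.40% of 6321 genes were at least 1.5-fold higher and 10.2% lower.

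Other exporters of this class were near their control level. Of 8 listed drug exporters 4 had enough UMIs to compare, none passed 1.5-fold, and their median log2 ratio was -0.22. Abcg2 had a log2 ratio of -0.15 and Abcc4, an exporter of organic anions, of 0.27. Of 22 listed genes of factors reported to act on Abcb1 transcription, 20 could be compared and 2 passed 1.5-fold, both lower: Nr3c2, the mineralocorticoid receptor (6.27 and 12.3 CPM), and Cebpb (23.0 and 35.2 CPM). The glucocorticoid receptor gene Nr3c1 stood at 187 CPM after stress and 190 CPM in the control. Of 6 glucocorticoid-induced genes 1 passed 1.5-fold, Fkbp5, which was higher with 22 UMIs after stress and 11 in the control, and their median was -0.07.

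Abcb1b was highest in the adrenal cortex among classes of at least 30 cells in each library. Adrenal cortex-like cells, recognised by steroid-making enzymes, held 4841 UMIs in 1733 stress cells and 3733 UMIs in 1554 control cells, or 216 CPM (210 to 222) and 166 CPM (161 to 171). This was 93.1% and 93.4% of all adrenal Abcb1b UMIs in kept cells. Adrenal macrophage-like cells came next (53.6 and 54.7 CPM). Dividing-like adrenal cells (35.0 and 28.9 CPM), adrenal endothelial-like cells and PVN microglia-like cells (26.0 and 27.8 CPM) followed and were not apart from each other beyond their intervals in both conditions.

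Within the cortex the gene was concentrated in a small cluster. Cluster 13, led by Abcb1b itself, Aldh1a1, Sbsn, Mgst2 and Srd5a2, held 87 stress cells and 60 control cells. They were 5.02% (4.04 to 6.16, exact binomial) and 3.86% (2.96 to 4.94) of cortex-like cells and carried 76.8% and 69.8% of their Abcb1b UMIs. The level there was 4603 CPM after stress and 5042 CPM in the control, with a median of 38 and 42 Abcb1b UMIs per cell and highest cells of 106 and 104. In the other cortex-like cells it was 52.0 and 51.3 CPM. Between them stood cluster 11, with 220 and 174 CPM, and cluster 7, with 67.6 and 64.9 CPM.

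**Figure D3:**
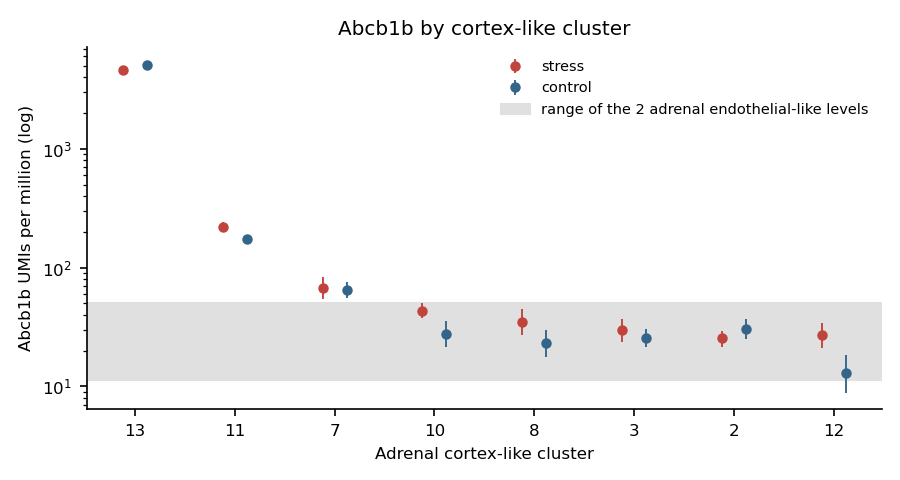
Abcb1b in the 8 adrenal cortex-like clusters, in CPM on a log axis with 95% exact Poisson intervals. Stress points stand left of control points, and the grey band spans the levels of adrenal endothelial-like cells (50.4 CPM after stress and 11.3 CPM in the control). Clusters 13, 11 and 7 lie above the band in both conditions.

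The remaining 5 cortex-like clusters held 25.3 to 43.4 CPM after stress and 12.9 to 30.6 CPM in the control. Adrenal endothelial-like cells, which lack steroid-making enzymes, had 50.4 CPM (39.2 to 63.8) and 11.3 CPM (4.88 to 22.3). All 5 clusters lay below the endothelial level in the stress library and above it in the control library, where the interval of cluster 2 (25.2 to 36.9 CPM) did not overlap with it. A single stress cell held 24 of the endothelial UMIs, and without it the stress level was 33.1 CPM, below 2 of the 5 clusters. The part of free RNA in these low levels was not tested. After thinning to 1000 UMIs, 9.0% of cortex-like cells had an Abcb1b UMI in the stress library and 7.66% in the control library, against 4.38% and 2.29% of endothelial-like cells. A cell with 2 or more UMIs after thinning was found among 4.96% (3.99 to 6.09) and 3.93% (3.02 to 5.01) of cortex-like cells and among none of 274 and 131 endothelial-like cells, which allows up to 1.09% and 2.29%. Unthinned, 37.4% and 37.5% of cortex-like cells had a UMI, at median depths of 11249 and 11625, and 15.3% and 6.11% of endothelial-like cells, at 4285 and 4848.

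The cells rich in Abcb1b expressed genes of steroid synthesis. Since the cluster was drawn from expression, its differences from other cells are descriptions with no test. Cyp11b1, which makes corticosterone, stood at 3338 and 2551 CPM in cluster 13 in stress and control, against 1238 and 1158 CPM in the other cortex-like cells. Cyp21a1, the steroid 21-hydroxylase gene, was not alike in both libraries, with 5932 and 2838 CPM against 3838 and 4627 CPM. Markers of the outer zone were low: Dab2 had 81.7 and 38.7 CPM against 891 and 823 CPM, and the angiotensin receptor gene Agtr1b had no UMI in cluster 13 in either library. Akr1b7, an aldo-keto reductase of the fasciculata, was at 2606 and 2692 CPM in cluster 13 and 2034 and 2865 CPM elsewhere in the cortex. The ACTH receptor gene Mc2r was lower, with 145 and 79.4 CPM against 288 and 314 CPM.

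Genes of factors differed in both directions between these cells and the rest of the cortex. Fos had 63.1 and 42.6 CPM in cluster 13 in stress and control, against 981 and 1577 CPM in the other cortex-like cells. Egr1 had 9.91 and 7.74 CPM against 165 and 268 CPM. Both are immediate-early genes. The transcription factor gene Cebpb was higher, at 576 and 629 CPM against 239 and 308 CPM. So was Zbtb16, a glucocorticoid-induced gene, at 28.5 and 40.6 CPM against 7.74 and 7.91 CPM. The other listed glucocorticoid-induced genes were divided. Fkbp5 was higher in both libraries, at 34.7 and 101 CPM against 25.1 and 35.4 CPM, but its counting interval in the stress library included no difference. Tsc22d3 was lower (18.6 and 15.5 against 39.4 and 45.6 CPM), as was Ddit4 (17.3 and 11.6 against 36.4 and 59.0 CPM). Sgk1 was also lower in both libraries, and Per1 was higher only in the stress library. The counting intervals of Sgk1 and Per1 included no difference in both libraries. The exporter Abcc4 was at 16.1 and 32.9 CPM against 4.36 and 5.64 CPM.

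Abcb1a was also higher in cluster 13, with 16 UMIs after stress and 35 UMIs in the control. This was 19.8 and 67.7 CPM, against 0.79 and 1.23 CPM in the other cortex-like cells. For every 100 Abcb1b UMIs there were 0.43 and 1.34 Abcb1a UMIs. The log2 ratio of stress over control was -1.75 (-2.73 to -0.88), in a cluster where 14.0% of 6386 genes were at least 1.5-fold lower and 9.40% higher. Of the 5 genes beside the pair on chromosome 5, only Crot, a peroxisomal acyltransferase, had over 6 UMIs in cluster 13 in either library. It stood at 27.2 and 36.8 CPM there in stress and control, against 30.8 and 33.7 CPM in the other cortex-like cells.

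Cells with at least 3 Abcb1b UMIs (186 and 173) were set against cortex-like cells with none (1084 and 972), and genes were named by the size of the ratio in the library where it was smaller. The 8 highest were Runx2, Aldh1a1, Mgst2, Col5a3, Aldh1a7, Sbsn, Srd5a2 and Cabp1. Sbsn, the gene of the secreted protein suprabasin, stood at 531 and 407 CPM in these cells against 24.7 and 17.1 CPM. Srd5a2, a steroid 5-alpha-reductase, stood at 285 and 222 CPM against 10.9 and 11 CPM. Aldh1a1, which makes retinoic acid, differed between libraries, with 103 and 299 CPM against 1.06 and 4.38 CPM. All but 2 cluster 13 cells in each library had at least 3 Abcb1b UMIs. That cluster held 87 stress and 60 control cells, so most of the cells with at least 3 UMIs lay in other clusters. The list shares Aldh1a1, Sbsn, Mgst2 and Srd5a2 with the leading genes of cluster 13, so it is not a separate result. All 8 highest genes stood higher in cluster 13 than in cluster 11 in both libraries. Runx2 had 79.2 and 101 CPM against 3.81 and 1.23 CPM, and Srd5a2 had 728 and 641 CPM against 139 and 153 CPM. The 8 lowest were Prss12, Sp5, Cdh6, Arc, Vsnl1, Pla2g2d, Hebp2 and Fbln1; Vsnl1, a calcium sensor of the outer cortical zone, had 75.2 and 70.2 CPM against 352 and 303 CPM.

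After stress, cortex-like Abcb1b was higher by a log2 ratio of 0.38 (0.32 to 0.45), below 1.5-fold. In the class 4.56% of 12612 genes were at least 1.5-fold higher and 4.43% lower, the median ratio was 0.01, and 8.02% of genes had a ratio as high as that of Abcb1b. Without cluster 13 the ratio was 0.02 (-0.10 to 0.14), where 4.61% of genes were at least 1.5-fold higher and 4.31% lower, and within cluster 13 it was -0.13 (-0.20 to -0.06). By cluster, the ratio was 1.04 (0.43 to 1.70) in cluster 12 and 0.64 (0.24 to 1.07) in cluster 10. In cluster 8 it was 0.60 (0.08 to 1.13). All passed 1.5-fold, where 1.09%, 5.00% and 5.51% of genes were as high. Cluster 11 stood at 0.34 (0.16 to 0.52), clusters 3 and 7 at 0.22 and 0.06, and cluster 2 at -0.28. Cluster 11 held 156 stress and 217 control cells. The ratio in the class thus also depended on the cells in each cluster. The share of cluster 13 cells had intervals that overlapped between the libraries.

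That share moved with the filter on mitochondrial UMIs. Cluster 13 cells had a median mitochondrial share of 18.8% after stress and 10.4% in the control, beside 6.08% and 5.97% in the other cortex-like cells. Among all adrenal barcodes with at least 10 Abcb1b UMIs, 158 of 257 in the stress library and 21 of 92 in the control library were over 25% mitochondrial and had been left out. With no filter such barcodes were 8.07% (7.15 to 9.08) of the stress library and 3.95% (3.19 to 4.82) of the control library. At the 25% limit they were 3.53% (2.88 to 4.28) and 3.23% (2.53 to 4.05). At a limit of 10% the order turned round, to 8 of 2550 barcodes (0.31%) after stress and 33 of 2038 (1.62%) in the control.

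**Figure D4:**
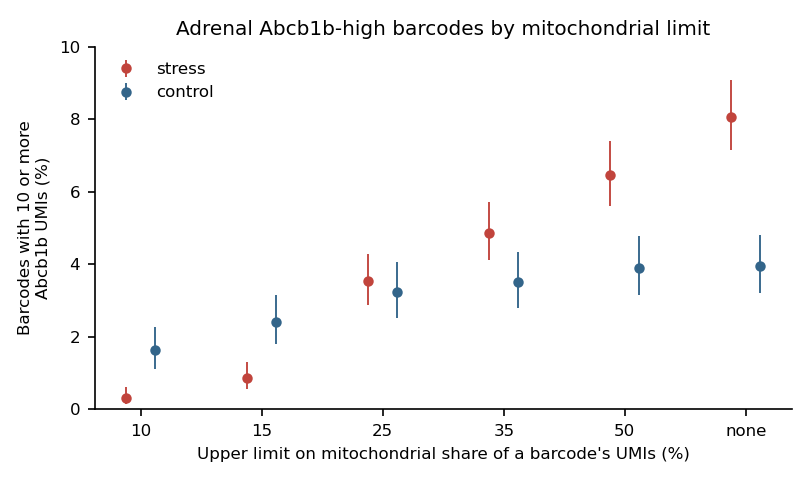
Share of adrenal barcodes with 10 or more Abcb1b UMIs (vertical axis, %, 95% exact binomial intervals) under 5 upper limits on the mitochondrial share of a barcode's UMIs and with none (horizontal axis). Stress points stand left of control points; the stress library lies lower at limits of 10% and 15% and higher at 25% and above, with intervals that overlap at 25% and 35%.

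The log2 ratio in cortex-like cells followed the same course. It was -1.08 (43.2 and 91.4 CPM) at a limit of 10%, and 1.05 (407 and 196 CPM, interval 1.00 to 1.10) with no cell filter, where 4.81% of 12705 genes were at least 1.5-fold higher and 4.76% lower. Among barcodes with 10 or more Abcb1b UMIs in the stress library, those over 25% mitochondrial had 4674 CPM of Abcb1b and 2679 CPM of Cyp11b1, against 4085 and 3242 CPM in those at or below 25%. In the control library these values were 4751 and 2775 CPM against 3851 and 2772 CPM. Sbsn was lower in the barcodes left out, with 824 against 1265 CPM in the stress library and 399 against 1332 CPM in the control library. Aldh1a1, a leading gene of cluster 13, was lower too, with 46.9 against 232 CPM and 139 against 864 CPM. These levels count mitochondrial UMIs in the total. Without them, Sbsn was at 1522 against 1528 CPM in the stress library and 657 against 1494 CPM in the control library. Aldh1a1 stayed lower, at 86.7 against 280 CPM and 229 against 970 CPM. Cyp11b1 was then higher in the barcodes left out in both libraries, at 4947 against 3915 CPM and 4569 against 3111 CPM. So was Abcb1b, at 8632 against 4933 CPM in the stress library and 7824 against 4322 CPM in the control library. Both groups were picked for 10 or more Abcb1b UMIs, so their Abcb1b levels depend on that choice and on depth. Of the 158 and 21 barcodes left out, 122 and 13 lay nearest to cluster 13. Mitochondrial share, condition and the number of Abcb1b-rich cells moved together here, the part of each was not tested, and with 1 pool per condition the effect of stress cannot be told apart from a difference between the suspensions.

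The other listed genes of the cortex-like class are read beside the shares over all its genes, 4.56% higher and 4.43% lower by 1.5-fold. Of 8 drug exporters 6 could be compared and 1 passed 1.5-fold, Abcb4, which was lower with 8 UMIs after stress and 18 in the control. The median of the exporters was -0.12. Of 20 factor genes compared, 2 passed and both were lower, Fos (948 and 1542 CPM) and Egr1 (159 and 262 CPM), and the median was -0.10. Of the 5 neighbours on the chromosome 1 passed, again Abcb4, with a median of -0.08. Of 7 zone genes 2 passed, both higher: Hsd3b6 (282 and 158 CPM) and Cyp11b2, the aldosterone synthase gene (28.5 and 18.4 CPM), with a median of 0.10. Of 6 glucocorticoid-induced genes 2 were lower, Per1 (22.6 and 40.2 CPM) and Ddit4 (35.7 and 57.9 CPM), and the median was -0.38.

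Myeloid cells of all tissues held Abcb1b UMIs, and at most 1 Abcb1a UMI per class and library. Adrenal macrophage-like cells held 169 UMIs in 468 stress cells and 109 UMIs in 301 control cells, PVN microglia-like cells 18 UMIs in 172 and 27 UMIs in 216 cells, and pituitary macrophage-like cells 10 UMIs in 110 and 6 UMIs in 111 cells (18.9 and 11.8 CPM). In adrenal macrophage-like cells the level was 24.8% and 33.0% of that in cortex-like cells, while Cyp11b1 stood at 4.54% and 4.18% and Star, the cholesterol carrier of steroid synthesis, at 5.36% and 4.60%. Adrenal endothelial-like cells had an overlapping Abcb1b interval in the stress library (53.6 CPM in macrophage-like cells, 45.8 to 62.3, and 50.4 CPM in endothelial-like cells), but not in the control library (54.7 CPM, 44.9 to 66.0, and 11.3 CPM). Leaving out the cell with the most UMIs, the control level in macrophage-like cells was 42.3 CPM. The part of free RNA was not tested. The stress to control log2 ratio was -0.03 (-0.39 to 0.33) in these cells, where 9.70% of 8764 genes were at least 1.5-fold higher and 6.26% lower. It was -0.08 (-1.04 to 0.82) in microglia-like cells, where the shares were 11.3% and 6.10%.

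In the pituitary, lactotrope-like cells, the makers of prolactin, held 46.9% and 66.2% of the Abcb1b UMIs. These were 30 UMIs in 505 stress cells and 51 UMIs in 479 control cells, 7.02 CPM (4.73 to 10.0) and 13.1 CPM (9.79 to 17.3). The log2 ratio was -0.90 (-1.61 to -0.23), in a class where 7.14% of 10804 genes were at least 1.5-fold lower and 3.66% higher. Somatotrope-like cells, the largest class, held 15 UMIs in each library (0.41 and 0.43 CPM), and corticotrope-like cells, which drive the adrenal through ACTH, held 0 and 1.

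In adrenal endothelial-like cells the Abcb1b sum was 69 UMIs after stress and 8 in the control, a log2 ratio of 2.08 (1.10 to 3.42) where 7.53% of genes were at least 1.5-fold higher and 9.08% lower. The stress cell with 24 of these UMIs has been given above. Cyp11b1, which endothelium does not make, stood at 88.3 and 50.9 CPM in the same cells. In chromaffin-like cells 2 control cells held all 65 UMIs, against 10 UMIs in 9 stress cells, and Cyp11b1 there stood at 35.1% of the cortex level in the control and 5.19% after stress. The part of cortex RNA in both results was not tested.

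Across 50 points, 1 for each class of at least 30 cells in each library, the levels of the paralogs were unrelated in log2(CPM + 1), with Pearson r = 0.04. These points share libraries and depth, and r is a description. Of 13218 genes, those most like Abcb1a were Scgb3a1 (r = 0.83), Slc26a10, Slc19a3, a thiamine transporter, Krtap28-13, Paqr5 and 8430408G22Rik (r = 0.78), all highest in PVN endothelial-like cells. Those most like Abcb1b were Hoxb4 (r = 0.81), Apoc4, Cytip, Cyp11b1, Ly6d and Cyp21a1 (r = 0.77). Of these, Apoc4, Cyp11b1, Ly6d and Cyp21a1 were highest in adrenal cortex-like cells in both libraries and Cytip in adrenal macrophage-like cells.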

How the data were processed

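The deposited files hold raw UMI counts for each gene in each barcode. The submitters' processing notes name Cell Ranger 2.1.1, mm10 and, without a role, Scanpy. For annotation and cell calling, settings are not given in the sources used here. Counts by the authors were used as deposited. Kept barcodes had 200 or more genes and a mitochondrial share of 25% or less, and the highest scores against simulated doublets were removed at 0.8% per 1000 cells. Cells of a tissue were clustered jointly with scanpy 1.11.5 on 2000 variable genes without ABC transporter, glucocorticoid-responsive, immediate-early, heat-shock, haemoglobin, ribosomal, sex-linked and mitochondrial genes (30 components, 15 neighbours, Leiden resolution 1). To be named, a cluster needed 3 markers with a UMI in 10% of its cells and a level 2 times the lower quartile over clusters. Rules that left clusters with markers of different classes unnamed were chosen once the clusters were known. In the adrenal 132 stress and 97 control cells stayed unnamed, in the PVN 49 and 49, and in the pituitary 107 and 131.

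Each sum had 0.5 UMI added for ratios, whose 95% intervals are exact and conditional, shares had Clopper-Pearson intervals, and a gene entered a background count with 20 or more UMIs. Intervals and floors cover counting error only. Cells are not replicates, so the only tests were exact sign-flip permutation tests over libraries. These tests took libraries of the same tissue as independent. The rule for named genes was the pair itself in every class, the 6 genes most like each, the 8 highest and 8 lowest between Abcb1b-rich and Abcb1b-free cortex-like cells (among genes with 100 or more UMIs), and listed genes. Ratios, intervals and the test were checked on simulated data. The simulation drew Poisson counts and independent libraries, so it does not cover variation between pools or libraries that share a tissue. The pair and the lists were chosen with earlier results of these data known. Promoters are from RefSeq (GRCm38.p6), and both genes were matched.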

Additional observations from a re-analysis of the deposited data

Results flagged for a closer look

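Abcb1a in endothelial-like cells against the other cells of a library had a different sign in different tissues. The log2 difference was 6.18 and 5.97 in stress and control PVN and 5.38 and 5.31 in the pituitary, but -0.97 and -0.19 in the adrenal. The adrenal values rest on 1 and 2 UMIs, and their intervals (0.02 to 4.07 and 0.34 to 10.2 CPM) hold the level of the other cells (2.38 and 3.36 CPM). The difference between tissues was not tested. For Abcb1b the difference was 1.84 and 0.32 in stress and control pituitary, against -0.84 and -0.90 in the PVN and -1.77 and -3.59 in the adrenal. The pituitary values rest on 4 and 1 UMIs and the PVN values on 1 UMI each, and the difference between tissues was not tested.

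The stress to control log2 ratio of Abcb1a in endothelial-like cells was -0.25 in the PVN and 0.28 in the pituitary. The pituitary interval includes 0 and the difference was not tested.

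Barcodes left out of every class for a mitochondrial share over 25% also held Abcb1b. In the adrenal, 158 of them in the stress library and 21 in the control library had 10 or more Abcb1b UMIs. Of these, 122 and 13 lay nearest to cluster 13.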

How the results depend on the processing

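The stress to control result for cortex-like Abcb1b, log2 0.38, depended on which barcodes were kept. It was -1.08 at a mitochondrial limit of 10%, 0.87 at 50%, 1.05 with no cell filter and 1.06 with no filter and all barcodes clustered anew. It was 0.16 with each cell weighted equally, 0.15 with cells thinned to 1000 UMIs, 0.62 minus the ratio in all other adrenal cells and 0.021 without cluster 13. The share of cortex-like cells with 2 or more Abcb1b UMIs, 1.04 percentage points higher after stress, was 6.53 points higher with no cell filter, 6.94 with barcodes clustered anew and 4.45 at a limit of 50%. It was -1.23 points at a limit of 10% and -0.25 points unthinned (16.7% and 17.0%). PVN endothelial Abcb1a, -0.25, became 0.27 minus the ratio in all other PVN cells, whose Abcb1a UMIs lay mostly in cluster 18. It otherwise stayed between -0.37 and -0.20. Leaving out 1 library at a time, the endothelial difference ranged from 3.10 to 4.53 for Abcb1a and from -1.36 to -0.27 for Abcb1b, and 5 libraries cannot give p below 0.0625. Abcb1a was higher in 5 of 6 libraries at a mitochondrial limit of 10% (mean 3.68) and with each library clustered alone (4.06). The same count held with the unnamed clusters left out (4.30). The adjusted exact permutation p was then 0.1875, 0.125 and 0.1875. For Abcb1b thinned to 1000 UMIs the exact permutation p was 0.03125, 0.0625 adjusted, with a difference below 0 in 6 of 6 libraries. Thinning left PVN endothelial-like cells at 0 CPM in both libraries. Pituitary endothelial-like cells had held only 4 and 1 UMIs before it. These counts are too few for the sign of a thinned difference to be read. Under other clusterings, a cluster took the class of most of its cells. By markers alone the PVN endothelial cluster was not named endothelial without doublet removal, with no filter and in the stress library clustered alone. Only 823 of 1553 cortex cells of the control library clustered alone were named cortex by markers. The 50% limit, the anew clustering, cluster 13 and the unnamed clusters were alternatives chosen after seeing the data. No paired analysis was possible within a tissue, because each tissue and condition gave 1 library. Pairing stress and control by tissue over the 3 tissues was not run, since each stress result concerns a class of 1 tissue. Depth limits Abcb1b in PVN endothelium, at 1 UMI per library, to an upper level of 3.88 CPM after stress and 4.91 CPM in the control.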

Other observations

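Abcb4, the next gene on the chromosome and a close relative of the pair, was found in glia-like cells. PVN oligodendrocyte precursor-like cells held 21 Abcb4 UMIs after stress and 25 in the control (23.2 and 25.3 CPM), and PVN microglia-like cells 19 and 24 UMIs (27.4 and 24.7 CPM). The same microglia-like cells held 18 and 27 UMIs of Abcb1b (26.0 and 27.8 CPM), and the precursor-like cells 6 and 4. Adrenal cortex-like cells held 8 and 18 UMIs of Abcb4 beside 4841 and 3733 of Abcb1b.

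Ly6d, one of the most abundant cortex transcripts and among the genes most like Abcb1b over classes, was low in the Abcb1b-rich cells themselves: cluster 13 had 532 and 846 CPM in stress and control, against 7802 and 8194 CPM in the other cortex-like cells. This gene was singled out after its values were seen.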
